A study of Sus scrofa with 8 samples.

Results

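The cell cycle and replication genes described here are 49 genes, chosen by symbol for their role: origin licensing and the replication fork, nucleotide supply, G1 cyclins with CDK2 and E2F factors, S to M cyclins and kinases, chromosome and spindle proteins, and inhibitors. Of these, 46 had a row among the 22516 genes of the table, and all 46 passed the low-count filter and were tested. RRM2, AURKA and MKI67 were matched to no row and are not analysed here. The samples were limb muscle of pig (Sus scrofa) embryos, sequenced as bulk RNA. The 4 groups were wild type (WT) and MYF5/MYOD/MYF6 knockout (KO), each at embryonic day 41 (E41) and day 62 (E62), with 2 libraries per group that the titles call biological replicates. The sample titles were followed where other labels differ from them: the title of the series has knockdown, and the later harvest is given as a slightly earlier day under growth. How the alleles were made, and whether the knockout embryos came from 1 clone, is not given in the sources used here. Library names within a group share 1 number, and only the wild-type E41 names carry the code LHL, where all others carry RHL. Only the KO E62 names lack the ending L001, and they repeat the S1 and S2 of the WT E41 names. Whatever these marks stand for cannot be told apart from the groups.

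Cells commit to division in G1, when D-type cyclins with CDK4 or CDK6 and then E-type cyclins with CDK2 phosphorylate the retinoblastoma protein RB1 and free E2F transcription factors. E2F factors switch on the genes of DNA replication, while MYBL2 and FOXM1 drive those of mitosis, and CDK inhibitors hold the kinases back. In embryonic muscle, dividing myoblasts leave the cycle and then fuse into fibres. In cultured mouse myoblasts, MyoD induces the inhibitor CDKN1A as the cells leave the cycle.

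Totals ran from 23402052 to 60539245 estimated counts per library. The targeted genes followed the labels: MYF5 had 948 to 3213 counts in the wild-type libraries and MYF6 530 to 3675, and both had 0 in all 4 knockout libraries, while MYOD1 had 1503 to 5715 against 20 to 88. Below, CPM is counts per 1e6 of the TMM-scaled library total. The summed level of 8 muscle fibre markers was 13230 to 42620 CPM in wild type and 12.4 to 28.4 CPM in the knockout, so the muscle label is not borne out by fibre markers in the knockout libraries. All 5 progenitor and myoblast markers were lower in the knockout at both stages, and MYOG, which starts differentiation, was at 0 in KO E62 replicate 2 and PAX7, a progenitor marker, in KO E62 replicate 1. The summed level of 7 fibroblast markers was 17080 to 37020 CPM in wild type and 38160 to 73000 CPM in the knockout. The summed level of 6 macrophage markers was 499 and 530 CPM in KO E62, against 77.2 to 159 CPM in the other groups. Endothelial markers, 5 in all, summed to 580 to 730 CPM in wild type and 767 to 1335 CPM in the knockout, and 4 of 5 were higher in the knockout at E62. KO E41 replicate 2 stood apart in 5 cartilage markers, with a summed level of 3628 CPM against 291 CPM in replicate 1. In 3 epidermal markers KO E62 replicate 1 had 427 CPM against 10.6 CPM in replicate 2 and 15.52 and 15.55 CPM in WT E62. The E41 libraries had 433 to 934 CPM in these markers, so wild type was lower in them at E62. Red blood cell markers, 7 in all, summed to 1181 to 4242 CPM in wild type and 4446 to 9492 CPM in the knockout. Of 4 Schwann cell markers, 2 were higher and 1 was lower in the knockout at E41, and 1 was higher and 1 was lower at E62. KO E62 replicate 2 lay at 39.9 on the second principal component of 500 variable genes, where replicate 1 lay at 10.3. In a bulk sample, fewer cells of a type and less RNA per cell cannot be told apart, and the part that these tissue differences play in the results below was not tested.

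At E41 the knockout limb had less RNA for most of the replication and mitotic machinery. Of the 46 genes, 29 were lower and 2 were higher in KO than in WT, which is 67.4% called against 39.2% of all 17020 genes tested, with 20.8% of all genes called lower and 18.5% higher. The median log2 change was -0.53, against 0.09 over all genes tested. Called genes are those with an adjusted p below 0.05 in edgeR's quasi-likelihood F test, adjusted over all genes tested. With either KO E41 library left out, 20 genes were called, 1 higher and 19 lower. Scaled by library size alone, 20 members were called, 3 higher and 17 lower, while the all-gene median moved up by 0.29.

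At E62 the calls were split. In that comparison 11 genes were higher and 7 were lower, or 39.1% called against 47.2% of all genes tested (21% higher, 26.2% lower), so the share called was below the background. It was 36.4% among licensing genes, 33.3% among S to M genes and 30% among chromosome genes. All calls of the S to M and chromosome genes were higher, so their shares stand against 21% of all genes. The median log2 change was 0.02, against 0.06 over all genes. The split of the calls rested on single libraries. Of these, WT E62 replicate 2 differed from replicate 1 in summed red blood cell markers (1181 against 4242 CPM) and fibroblast markers (37020 against 20450 CPM). The part of such marker levels in the split was not tested. Without WT E62 replicate 2 it was 4 higher and 7 lower. Without KO E62 replicate 1, which stood apart from the other E62 libraries in epidermal markers, it was 5 higher and 4 lower. Without KO E62 replicate 2 it was 14 higher and 7 lower. Only 5 of the 46 genes were higher in WT E62 replicate 2 than in replicate 1, and 6 of 46 in KO E62. Their median log2 difference, replicate 2 minus replicate 1, was -0.19 in WT and -0.16 in KO, against -0.002 and -0.001 over all genes tested. Scaling by library size alone gave 24 higher and 4 lower, with the median of all genes up by 0.31.

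The change between stages was tested directly, as the knockout effect at E62 minus that at E41. This difference was positive and called for 22 genes and negative and called for 2, which is 52.2% against 26.8% of all genes tested (11.2% positive, 15.5% negative). The median difference was 0.52 on the log2 scale, against 0.01 over all genes. The counts ran from 19 to 28 called over all alternatives run for this difference. Of 6 macrophage markers, 4 also had a called positive difference. All 6 were higher in the knockout at E62, with a median log2 change of 2.13. A negative difference was called in 5 of 8 muscle fibre and 2 of 4 Schwann cell markers. Of 5 progenitor and myoblast markers, 1 was called positive and 2 negative, and of 7 fibroblast markers 1 was positive. No cartilage, endothelial, red blood cell or epidermal marker was called. The part of these markers in the members' difference was not tested. The genotype comparisons at E41 and E62 share no library. Of the 29 genes lower at E41, 9 were higher at E62 (31% of 29, and 81.8% of the 11 higher at E62): MCM3, MCM6, CDC6, CCNB1, CCNB2, BUB1, BUB1B, CENPF and KIF20A. Another 3 were lower at both stages (10.3% of 29, and 42.9% of the 7 lower at E62): CCND2, E2F2 and CDKN1A. The matching overlaps over all genes tested were not counted, so these shares have no background beside them.

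**Figure D1:**
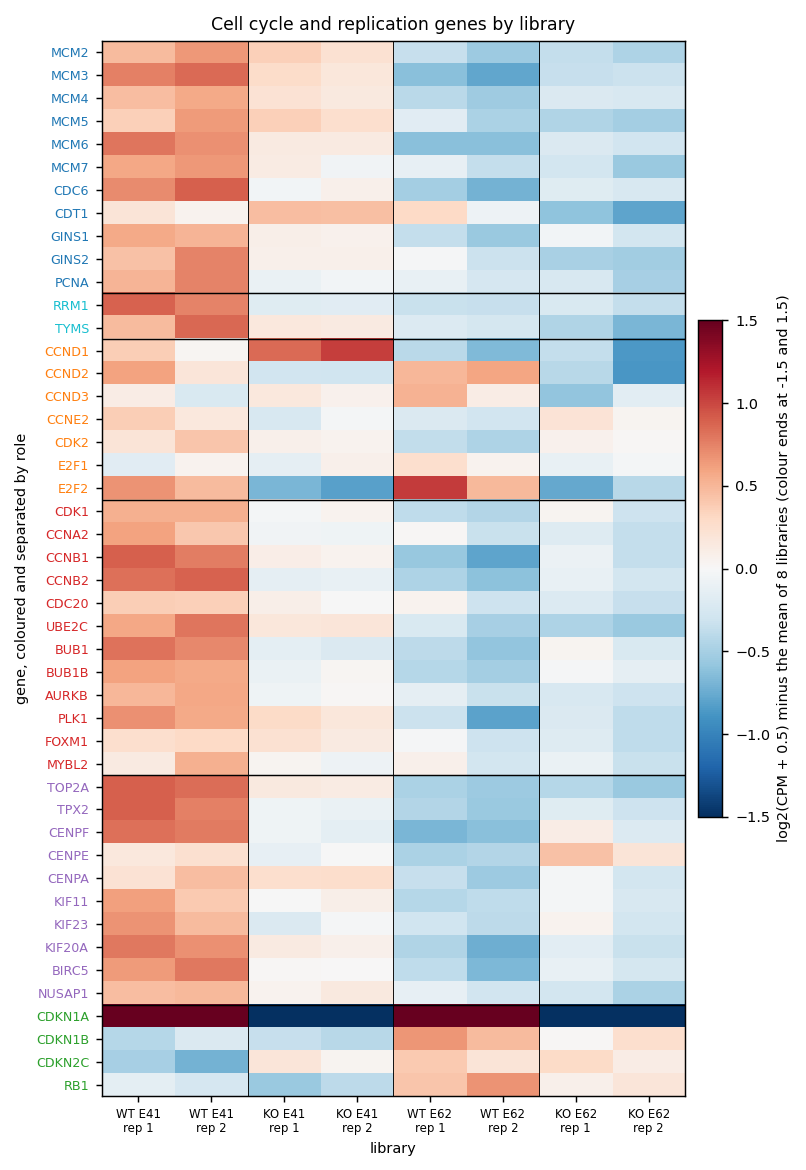
Level of each of the 46 genes (rows, separated and coloured by role) in each of 8 libraries (columns), as log2(CPM + 0.5) minus the gene's mean over the 8 libraries; red is above and blue below that mean, with colour ends at -1.5 and 1.5. The replication, S to M and chromosome blocks are reddest in both WT E41 libraries, and CDKN1A is deep blue in all 4 knockout libraries.

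**Figure D2:**
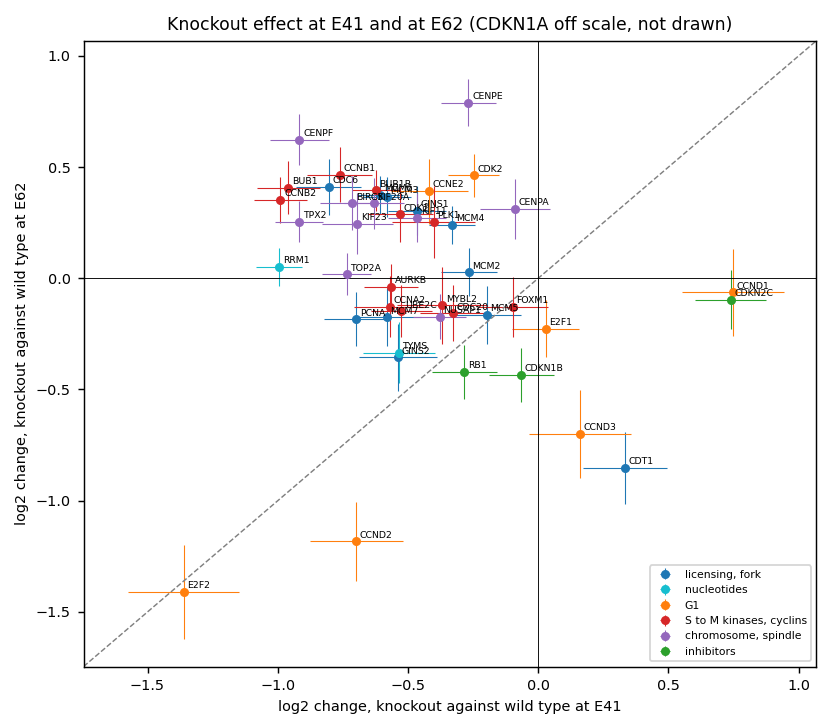
Log2 change in knockout against wild type at E41 (horizontal axis) and at E62 (vertical axis) for 45 genes, coloured by role, with bars of 1 standard error; the dashed line marks equal change, and CDKN1A (-6.19 and -6.47) lies off the axes. Most replication, S to M and chromosome genes sit left of zero and above the line, while CCND2 and E2F2 are low on both axes.

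Origin licensing loads the MCM2 to MCM7 helicase onto DNA through CDC6 and CDT1, and the GINS complex and the clamp PCNA then act at the fork. In WT E41 the 11 genes of this group had the highest geometric mean, 90.8 and 97.4 CPM, against 71.0 and 69.0 CPM in KO E41, 52.0 and 45.2 CPM in WT E62 and 50.6 and 46.7 CPM in KO E62. At E41, 8 of 11 were lower in the knockout and none was higher, or 72.7% called against 39.2% of all genes tested. At E62, 3 were higher and 1 was lower, or 36.4% against 47.2% of all genes (21% higher, 26.2% lower).

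MCM6, a subunit of the replicative helicase on chromosome 15 (15923638 to 15978587 in RefSeq's Sscrofa11.1 annotation), measured 330 and 304 CPM in WT E41 and 209 and 208 CPM in KO E41. At E62 it measured 123 CPM in both WT libraries and 163 and 155 CPM in KO. The knockout was below wild type at the first stage and above it at the second, with no overlap at either. Its log2 change was -0.61 ± 0.09 (SE, adjusted p = 0.0014) at E41 and 0.37 ± 0.09 (adjusted p = 0.0088) at E62, a difference of 0.98 ± 0.12 (adjusted p = 0.0018). MCM3, another helicase subunit, measured 172 and 183 CPM in WT E41, 123 and 114 CPM in KO E41, 65.7 and 59.0 CPM in WT E62 and 79.8 and 80.9 CPM in KO E62. It showed the same order of groups, with log2 changes of -0.58 ± 0.09 (adjusted p = 0.0021) and 0.37 ± 0.09 (adjusted p = 0.012), although the E62 call was lost without WT E62 replicate 2 (adjusted p = 0.066). The loading factor CDC6 measured 28.7 and 32.6 CPM in WT E41, 16.8 and 18.3 CPM in KO E41, 12 and 10.4 CPM in WT E62 and 15.2 and 14.6 CPM in KO E62. CDC6 was 1.75-fold lower at E41 (log2 -0.80, adjusted p = 0.0021). Its call as higher in the knockout at E62 (log2 0.41, adjusted p = 0.029) was lost in 5 of the 8 settings that left out 1 library, with an adjusted p of up to 0.13.

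CDT1, the partner of CDC6 in helicase loading, was called against the direction of this group. It measured 15.6 and 14.1 CPM in WT E41, 18.8 and 18.6 CPM in KO E41, 16.8 and 12.8 CPM in WT E62 and 8.75 and 7.63 CPM in KO E62. The knockout libraries were the low ones only at E62, where the log2 change was -0.85 ± 0.16 (adjusted p = 0.0037), against 0.33 ± 0.16 (adjusted p = 0.14) at E41. The difference between the stages was -1.19 ± 0.23 (adjusted p = 0.0086). The other genes of the group had log2 changes at E41 from -0.20 for MCM5 to -0.70 for PCNA, and at E62 from -0.35 for GINS2 to 0.30 for GINS1, with none of them called at E62. MCM2 (log2 -0.27, adjusted p = 0.086) and MCM5 (log2 -0.20, adjusted p = 0.27) were not called at E41.

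Both nucleotide supply genes were lower in the knockout at E41, or 100% called against 39.2% of all genes tested. Neither was called at E62, or 0% against 47.2%. RRM1, the large subunit of ribonucleotide reductase, measured 239 and 218 CPM in WT E41 against 115 CPM in both KO E41 libraries, and 103 and 102 CPM in WT E62 against 110 and 102 CPM in KO E62. WT E41 stood above the other groups, which lay close together. The fold was 1.99 lower at E41 (adjusted p = 0.00018), the log2 change at E62 was 0.05 ± 0.09 (adjusted p = 0.65), and the difference between stages was 1.05 ± 0.12 (adjusted p = 0.0016). TYMS, which makes thymidylate, measured 77.3 and 101 CPM in WT E41, 61.9 and 61.2 CPM in KO E41, 48.2 and 46.0 CPM in WT E62 and 40.4 and 34.2 CPM in KO E62. Its log2 change was -0.54 ± 0.14 (adjusted p = 0.018) at E41, lost without WT E41 replicate 2 or either KO E41 library (adjusted p up to 0.11). At E62 the log2 change was -0.34 ± 0.14 (adjusted p = 0.08).

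**Figure D3:**
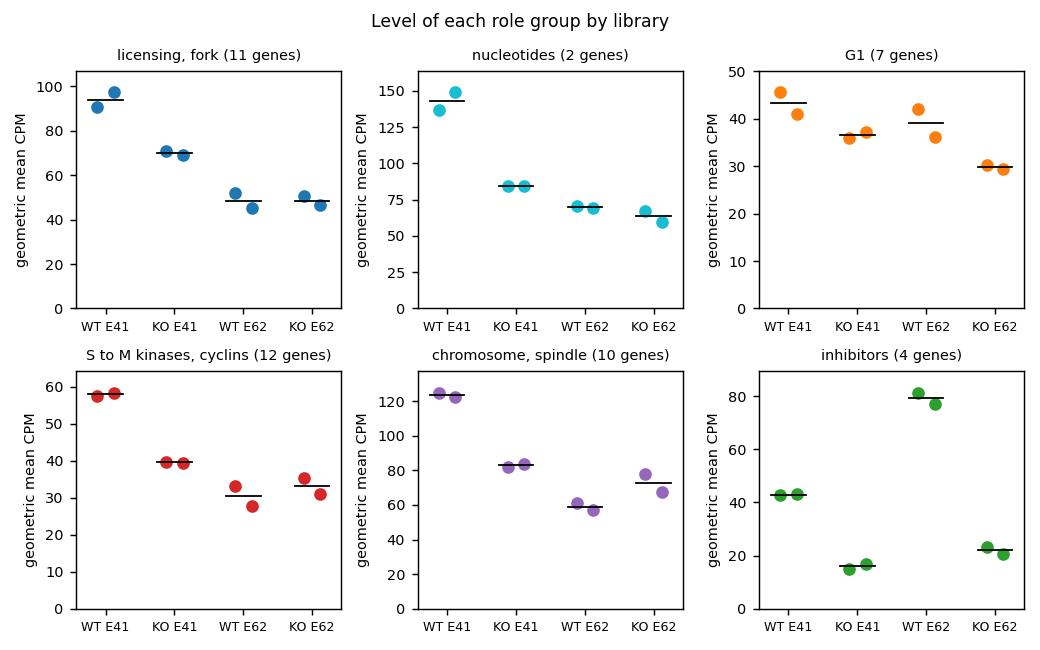
Geometric mean CPM of each role group in each library (points) with the mean of the 2 libraries of a group (black line), on axes that start at 0. The licensing, nucleotide, S to M and chromosome groups are highest in WT E41. The inhibitors, a group of 4, are low in all 4 knockout libraries, where CDKN1A alone is far below wild type and CDKN2C is higher at E41.

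The kinases, cyclins and checkpoint proteins that take a cell from S phase through mitosis had a geometric mean over 12 genes of 57.6 and 58.4 CPM in WT E41, 39.8 and 39.3 CPM in KO E41, 33.2 and 27.8 CPM in WT E62 and 35.2 and 31.0 CPM in KO E62. At E41, 8 of 12 were lower in the knockout and none was higher, or 66.7% called against 39.2% of all genes tested. At E62, 4 were higher and none was lower, or 33.3% against 47.2% of all genes (21% higher, 26.2% lower).

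CCNB2, a B-type cyclin that activates CDK1 at mitosis, measured 53.1 and 55.6 CPM in WT E41 and 27.1 and 27.6 CPM in KO E41. At E62 it measured 21.6 and 19.3 CPM in WT and 27.5 and 24.6 CPM in KO. It was 1.99-fold lower in the knockout at E41 (adjusted p = 0.00034) and 1.28-fold higher at E62 (adjusted p = 0.023). CCNB1, the other B-type cyclin of the set, measured 108 and 98.3 CPM in WT E41, 61.6 and 59.8 CPM in KO E41, 38.7 and 33.1 CPM in WT E62 and 54.4 and 44.8 CPM in KO E62. Its log2 change went from -0.76 ± 0.12 (adjusted p = 0.0024) to 0.47 ± 0.12 (adjusted p = 0.016). For both cyclins WT E41 was the highest group and WT E62 the lowest, with both knockout groups in between.

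BUB1, a kinase of the spindle checkpoint, measured 55.9 and 52.5 CPM in WT E41, 28.5 and 27.2 CPM in KO E41, 23.9 and 20.9 CPM in WT E62 and 32.4 and 26.9 CPM in KO E62. Its log2 change was -0.96 ± 0.12 (adjusted p = 0.00081) at E41 and 0.41 ± 0.12 (adjusted p = 0.025) at E62. BUB1B, which acts in the same checkpoint, measured 92.7 and 90.1 CPM in WT E41, 56.5 and 62.1 CPM in KO E41, 45.0 and 42.5 CPM in WT E62 and 60.1 and 55.1 CPM in KO E62. BUB1B changed by -0.62 ± 0.09 (adjusted p = 0.0016) and 0.40 ± 0.09 (adjusted p = 0.009). Both checkpoint genes were below wild type at E41 and above it at E62 without overlap. The E62 calls of CCNB1, CCNB2, BUB1 and BUB1B were each lost without WT E62 replicate 2 or without KO E62 replicate 1, with adjusted p of up to 0.10, 0.14, 0.16 and 0.052. Their differences between stages, 1.23, 1.34, 1.37 and 1.02 on the log2 scale, stayed called in every alternative. The remaining 8 genes had log2 changes at E41 from -0.10 for FOXM1 to -0.57 for CCNA2. CDK1, the mitotic kinase, changed by -0.53 ± 0.12 (adjusted p = 0.012), a call lost when either KO E41 or either WT E41 library was left out (adjusted p up to 0.079). FOXM1 (log2 -0.10, adjusted p = 0.61) and MYBL2 (log2 -0.37, adjusted p = 0.13), the transcription factors of this group, were not called in either genotype comparison, nor were CDC20, which activates the anaphase-promoting complex, and the mitotic kinase PLK1.

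The chromosome, kinetochore and spindle genes had a geometric mean over 10 genes of 125 and 123 CPM in WT E41 and 82.0 and 83.9 CPM in KO E41. At E62 it was 61.2 and 56.9 CPM in WT and 77.9 and 67.4 CPM in KO. This group had 8 of 10 lower in the knockout at E41 (80% called against 39.2% of all genes tested). At E62, 3 of 10 were higher and none was lower (30%, against 21% of all genes called higher and 47.2% called in either direction). Its difference between stages was positive and called in 8 of 10, against 26.8% of all genes called in either direction.

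CENPF, a kinetochore protein on chromosome 9 (128948386 to 129012241), measured 190 and 184 CPM in WT E41, 102 and 96.3 CPM in KO E41, 66.2 and 69.1 CPM in WT E62 and 116 and 92.6 CPM in KO E62. Levels of CENPF in the 2 genotypes did not overlap at either stage, and their order was reversed between the stages. The log2 change was -0.92 ± 0.11 (adjusted p = 0.00076) at E41 and 0.62 ± 0.11 (adjusted p = 0.0031) at E62, and the difference was 1.54 ± 0.16 (adjusted p = 0.0011). CENPE, the kinetochore motor, measured 54.1 and 57.2 CPM in WT E41, 44.4 and 48.0 CPM in KO E41, 34.6 and 35.3 CPM in WT E62 and 65.4 and 55.4 CPM in KO E62. KO E62 replicate 1 held its highest value and replicate 2 lay within the WT E41 range. The fold against WT E62 was 1.73 (adjusted p = 0.00068), while the log2 change at E41 was -0.27 ± 0.10 (adjusted p = 0.077).

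TPX2, which helps assemble the spindle, measured 227 and 206 CPM in WT E41, 116 and 113 CPM in KO E41, 89.2 and 82.6 CPM in WT E62 and 107 and 98.2 CPM in KO E62. It was 1.89-fold lower at E41 (adjusted p = 0.00031), and its log2 change at E62 was 0.25 ± 0.09 (adjusted p = 0.053). TOP2A, the topoisomerase that untangles sister chromosomes, measured 721 and 691 CPM in WT E41, 427 and 421 CPM in KO E41, 277 and 266 CPM in WT E62 and 287 and 263 CPM in KO E62. TOP2A was lower in the knockout by 0.74 ± 0.10 on the log2 scale at E41 (adjusted p = 0.00091), and its libraries overlapped between genotypes at E62 (log2 0.02, adjusted p = 0.89). The others (CENPA, KIF11, KIF23, KIF20A, BIRC5 and NUSAP1) had log2 changes at E41 from -0.09 for CENPA to -0.72 for BIRC5, which belongs to the chromosomal passenger complex. At E62 KIF20A, a kinesin of cytokinesis, was the only one of them called (log2 0.34, adjusted p = 0.044), and it was lost in 6 of the 8 settings that left out 1 library, with an adjusted p of up to 0.23 (without WT E62 replicate 2).

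Over the 7 G1 genes, 1 was higher and 2 were lower in the knockout at E41 (42.9% called against 39.2% of all genes), and 1 was higher and 3 were lower at E62 (57.1% against 47.2%). These shares are near those of all genes, so the values are given gene by gene. The 3 D-type cyclins differed from one another. CCND1, on chromosome 2 (3621242 to 3633380), measured 71.7 and 56.5 CPM in WT E41, 100 and 115 CPM in KO E41, 41.8 and 35.0 CPM in WT E62 and 43.2 and 30.3 CPM in KO E62. KO E41 was the high group, at a log2 change of 0.75 ± 0.20 (adjusted p = 0.021), which was lost without WT E41 replicate 2 or either KO E41 library (adjusted p up to 0.11). At E62 the libraries of the 2 genotypes overlapped (log2 -0.06 ± 0.20, adjusted p = 0.81).

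CCND2, on chromosome 5 (66092483 to 66114575), measured 98.7 and 73.8 CPM in WT E41, 53.4 and 52.8 CPM in KO E41, 92.4 and 97.9 CPM in WT E62 and 48.4 and 35.4 CPM in KO E62. All 4 knockout libraries were below all 4 wild-type libraries. The log2 change was -0.70 ± 0.18 at E41 (adjusted p = 0.018, up to 0.12 without WT E41 replicate 1 or either KO E41 library) and -1.18 ± 0.18 at E62 (adjusted p = 0.0014). CCND3 measured 81.7 and 64.5 CPM in WT E41, 84.6 and 78.8 CPM in KO E41, 109 and 81.8 CPM in WT E62 and 49.8 and 67.5 CPM in KO E62. Its call at E62 (log2 -0.70 ± 0.20, adjusted p = 0.023) was lost without WT E62 replicate 1 or KO E62 replicate 1 (adjusted p up to 0.14), and at E41 the genotypes overlapped (log2 0.16, adjusted p = 0.56).

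E2F2, an activating E2F factor on chromosome 6 (81377922 to 81398862), was the G1 gene furthest below wild type in the knockout at each stage. It measured 28.4 and 24.7 CPM in WT E41, 10.8 and 9.84 CPM in KO E41, 36.9 and 24.9 CPM in WT E62 and 10.1 and 13.1 CPM in KO E62. All knockout libraries lay below all wild-type libraries, with folds of 2.57 lower at E41 (adjusted p = 0.0023) and 2.66 lower at E62 (adjusted p = 0.0013). E2F1, a close relative, lay between 24.0 and 32.2 CPM in all 8 libraries and was called in none of the 5 comparisons. CDK2, the kinase of the G1 to S transition, measured 54.5 and 63.5 CPM in WT E41, 50.1 and 49.4 CPM in KO E41, 36.8 and 34.5 CPM in WT E62 and 49.9 and 48.3 CPM in KO E62. CDK2 was higher in the knockout than in wild type at E62 (log2 0.46 ± 0.10, adjusted p = 0.0061), and its log2 change at E41 was -0.25 ± 0.10 (adjusted p = 0.081). CCNE2, a cyclin partner of CDK2, measured 17.3 and 14.9 CPM in WT E41, 11.13 and 13.0 CPM in KO E41, 11.3 and 10.8 CPM in WT E62 and 15.4 and 13.7 CPM in KO E62. CCNE2 was called at neither stage (adjusted p = 0.055 and 0.057), although the difference between the stages was (log2 0.81, adjusted p = 0.024, up to 0.10 with 1 library left out).

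Among the inhibitors, CDKN1A (p21) had the largest change of all 46 genes, at both stages. It lies on chromosome 7 (32354776 to 32363771). CDKN1A measured 374 and 405 CPM in WT E41 and 830 and 728 CPM in WT E62, against 3.96 and 6.73 CPM in KO E41 and 11.3 and 6.14 CPM in KO E62. Every knockout library was far below every wild-type library, at 184 to 769 counts against 7748 to 27594. The fold was 72.9 lower at E41 (log2 -6.19 ± 0.41, adjusted p = 0.00015) and 88.9 lower at E62 (log2 -6.47 ± 0.41, adjusted p = 6.2e-05), and the difference between the stages was -0.29 ± 0.47 (adjusted p = 0.69). The summed fibre markers were lower in the same libraries, as given above.

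The other 3 inhibitors moved less. CDKN1B (p27) measured 23.9 and 27.7 CPM in WT E41, 25.3 and 24.0 CPM in KO E41, 51.3 and 45.1 CPM in WT E62 and 32.8 and 38.5 CPM in KO E62. Its genotypes overlapped at E41 (log2 -0.07, adjusted p = 0.71), and KO was below WT at E62 (log2 -0.43 ± 0.12, adjusted p = 0.021). RB1, the retinoblastoma protein that binds E2F factors, measured 25.1 and 23.4 CPM in WT E41, 18.8 and 21.1 CPM in KO E41, 37.3 and 44.9 CPM in WT E62 and 29.6 and 31.8 CPM in KO E62, with a log2 change at E62 of -0.42 ± 0.12 (adjusted p = 0.023). Both E62 calls were lost without KO E62 replicate 1, without 1 of the WT E62 libraries (replicate 1 for CDKN1B, replicate 2 for RB1) or with library size alone as the scaling (adjusted p up to 0.43). CDKN2C (p18), an inhibitor of CDK4 and CDK6, measured 14.0 and 11.99 CPM in WT E41, 22.7 and 20.6 CPM in KO E41, 26.5 and 22.9 CPM in WT E62 and 24.5 and 21.7 CPM in KO E62. WT E41 was its low group. The knockout was 1.67-fold higher at E41 (adjusted p = 0.0043) and overlapped wild type at E62 (log2 -0.10, adjusted p = 0.57).

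**Figure D4:**
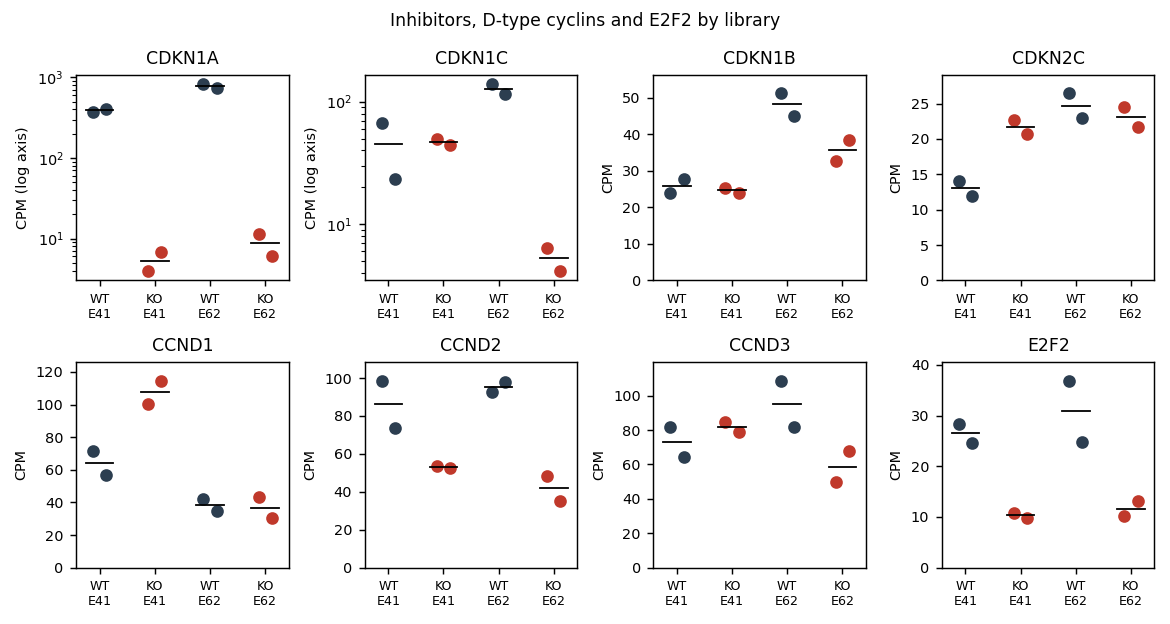
CPM in each library for CDKN1A and CDKN1C (log axes) and for CDKN1B, CDKN2C, the D-type cyclins and E2F2 (axes from 0); points are libraries (dark for wild type, red for knockout) and black lines group means of 2 libraries. CDKN1A, CCND2 and E2F2 are lower in all 4 knockout libraries, and CDKN1C is lower only in KO E62, at 6.46 and 4.16 CPM.

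The levels of these genes also changed with stage, in more genes in wild type than in the knockout. In wild type, 36 of 46 were lower at E62 than at E41 and 3 were higher, which is 84.8% called against 39.8% of all genes tested (19.8% higher, 20% lower), with a median log2 change of -0.84 against 0.03 over all genes. In the knockout, 15 were lower and 3 were higher, which is 39.1% against 30.1% of all genes (12.1% higher, 18% lower), with a median of -0.25 against -0.03. The knockout count fell to 9 and 10 without KO E41 replicate 1 or 2 and to 11 without KO E62 replicate 2. The stage comparisons of the genotypes share no library, but each shares libraries with the genotype comparisons above, and the test that the stage changes differ is the same difference already given, called for 24 genes. Of the 36 lower in wild type, 14 were lower in the knockout too (38.9% of 36, and 93.3% of 15), and the matching overlap over all genes tested was not counted.

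Wild type fell most in the mitotic and helicase genes. CCNB1 fell by 1.52 on the log2 scale (adjusted p = 0.00028), MCM3 by 1.51 (adjusted p = 0.00017), CENPF by 1.47 (adjusted p = 0.00023) and CDC6 by 1.45 (adjusted p = 0.00035). In the knockout the same 4 genes gave log2 values of -0.29 (adjusted p = 0.11), -0.56 (adjusted p = 0.0044), 0.07 (adjusted p = 0.65) and -0.24 (adjusted p = 0.18). All 10 chromosome genes and 11 of 12 S to M genes were lower at E62 in wild type. In the knockout 2 of 10 and 3 of 12 were, and CENPE was higher (log2 0.39 ± 0.10, adjusted p = 0.027, up to 0.18 with 1 library left out). Of all genes tested, 20% were called lower in wild type and 18% in the knockout, so these knockout counts lie near the background. Licensing genes were closer in number between genotypes, with 10 of 11 lower in wild type and 8 of 11 in the knockout. Their median log2 changes were -0.98 and -0.45. The knockout calls of MCM4, MCM6, MCM7 and GINS2 were each lost without KO E41 replicate 1, and also without KO E62 replicate 2.

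CCND1 and CDT1 fell furthest with stage in the knockout. CCND1 fell by 1.55 ± 0.20 on the log2 scale there (adjusted p = 0.0025) and by 0.74 ± 0.20 in wild type (adjusted p = 0.023, up to 0.17 with 1 library left out). CDT1 fell by 1.19 ± 0.16 in the knockout (adjusted p = 0.0025), and its wild-type log2 change was 0.00 ± 0.16 (adjusted p = 0.99). The inhibitors went the other way. CDKN1B, RB1 and CDKN2C rose in wild type by log2 values of 0.90 (adjusted p = 0.0015), 0.76 (adjusted p = 0.0028) and 0.93 (adjusted p = 0.0019). In the knockout the first 2 rose by 0.53 (adjusted p = 0.016) and 0.62 (adjusted p = 0.0091), calls lost with 1 knockout library left out (adjusted p up to 0.10 and 0.076), and CDKN2C gave 0.09 (adjusted p = 0.62). CDKN1A gave 1.00 ± 0.32 in wild type, with an adjusted p of 0.05016.

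**Figure D5:**
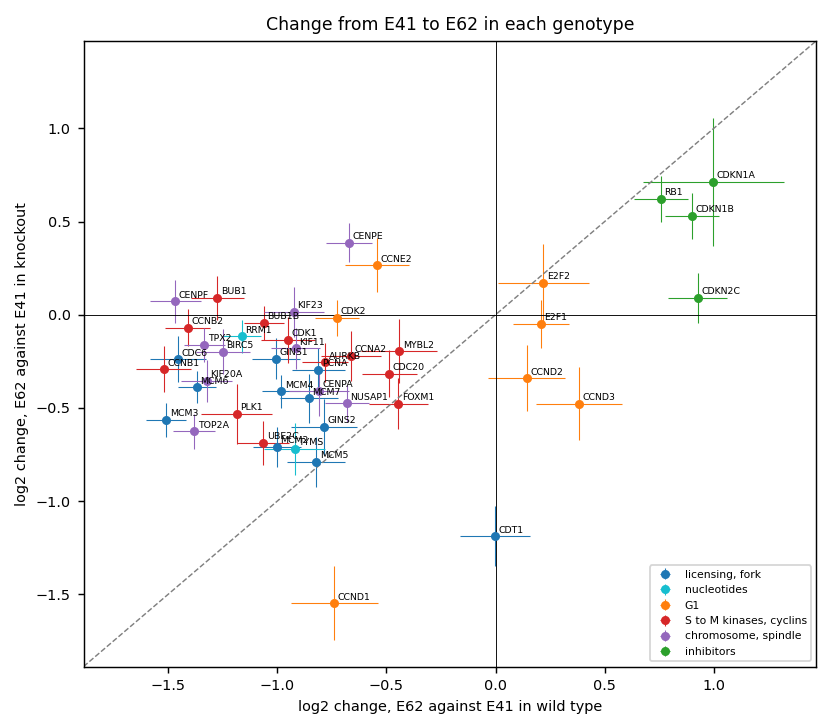
Log2 change from E41 to E62 in wild type (horizontal axis) and in the knockout (vertical axis) for 46 genes, coloured by role, with bars of 1 standard error; the dashed line marks equal change. Most replication and mitotic genes lie left of zero and above the line, CCND1 and CDT1 lie below it, and the 4 inhibitors lie right of zero.

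Other genes of the pathway, 111 in 4 lists of which 106 were tested, gave the following counts. Among 35 other replication genes, 20 were lower and none was higher in the knockout at E41 (median log2 -0.42), or 57.1% called against 39.2% of all genes tested. At E62, 7 were higher and 1 was lower (median 0.17), or 22.9% called against 47.2%, and the share called higher was near the 21% of all genes. DUT, which keeps uracil out of DNA, was 2.36-fold lower at E41 (adjusted p = 0.00052) and unmoved beyond its error at E62 (log2 0.03 ± 0.14, adjusted p = 0.89). RFC3, a subunit of the clamp loader, and PRIM2, a subunit of primase, were lower in the knockout by log2 values of 0.82 (adjusted p = 0.0011) and 0.84 (adjusted p = 0.0014) at E41. At E62 the highest were PRIM1, the catalytic primase subunit (log2 0.68, adjusted p = 0.0024), the origin complex gene ORC4 (log2 0.66, adjusted p = 0.0033) and MCM10 (log2 0.60, adjusted p = 0.0024). TK1, a thymidine kinase, was the 1 called lower (log2 -0.39, adjusted p = 0.035, up to 0.60 over the alternatives). The count of 20 at E41 fell to 11 or 12 without WT E41 replicate 2 or either KO E41 library, and the 8 called at E62 fell to 5 without KO E62 replicate 2.

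Among 42 other mitotic genes, 25 were lower and none was higher at E41 (median log2 -0.56), or 59.5% called against 39.2% of all genes. At E62, 15 were higher and 2 were lower (median 0.22), or 40.5% against 47.2% of all genes (21% higher, 26.2% lower). CDC25C, a phosphatase that activates CDK1, measured 14.2 and 15.8 CPM in WT E41, 8.29 and 6.93 CPM in KO E41, 3.88 and 4.59 CPM in WT E62 and 10.9 and 9.68 CPM in KO E62. Its log2 change went from -0.98 ± 0.18 (adjusted p = 0.0038) to 1.28 ± 0.18 (adjusted p = 0.00085), so the order of the genotypes was reversed. The 2 lower at E62 were CDC25B, another phosphatase of this family, and WEE1, the kinase that restrains CDK1. Against wild type, CDC25B was lower in the knockout by log2 values of 1.22 at E41 (adjusted p = 0.00011) and 1.47 at E62 (adjusted p = 1.9e-05). WEE1 was lower by 0.57 (adjusted p = 0.0013) and 0.85 (adjusted p = 0.00012). NCAPG, a condensin subunit, and the kinesin KIF15 were lower at E41, by 0.83 (adjusted p = 0.00056) and 0.73 (adjusted p = 0.00067).

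Among 17 other G1 regulators, 2 were higher and 7 were lower at E41 (52.9% called against 39.2% of all genes), and 2 were higher and 9 were lower at E62 (64.7% against 47.2%). SKP2, the ubiquitin ligase subunit that marks CDKN1B for degradation, measured 112 and 116 CPM in WT E41, 45.8 and 50.4 CPM in KO E41, 156 and 117 CPM in WT E62 and 36.4 and 32.5 CPM in KO E62. The knockout was the low group at both stages, with folds of 2.37 (adjusted p = 0.00053) and 3.96 lower (adjusted p = 3.2e-05). CCNE1, the other E-type cyclin, was also lower at both, with log2 changes of -1.05 (adjusted p = 0.0032) and -1.32 (adjusted p = 0.0008), as was the repressor E2F7, with -0.54 (adjusted p = 0.0059) and -0.72 (adjusted p = 0.0012). CDK6, a partner of D-type cyclins, was 2.58-fold lower at E62 (adjusted p = 0.00022), against a log2 change of -0.21 ± 0.14 at E41 (adjusted p = 0.29). TFDP1, the partner of E2F factors, was higher at E41 (log2 0.32, adjusted p = 0.016) and lower at E62 (log2 -0.55, adjusted p = 0.0011). The 2 higher at E62 were E2F3, another E2F factor (log2 0.49, adjusted p = 0.014, up to 0.07 without WT E62 replicate 2 or KO E62 replicate 1), and CKS1B, which works with SKP2 (log2 0.62, adjusted p = 0.0051). MYCN, a transcription factor that promotes growth, was higher at E41 (log2 0.97, adjusted p = 0.038). At E41 the call of TFDP1 was lost without either KO E41 library (adjusted p up to 0.10), and that of MYCN without either WT E41 library or KO E41 replicate 1 (up to 0.24). Of the 9 called at E41, 4 or 5 stayed when any 1 library of that stage was left out, and without KO E62 replicate 1 the 11 at E62 became 7.

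Among 12 other inhibitors and arrest genes, 1 was higher and 3 were lower at E41, a share of 33.3% that is below the 39.2% of all genes. At E62, 3 were higher and 6 were lower (75% against 47.2%). CDKN3, a phosphatase that acts on CDKs, was 2.76-fold lower at E41 (adjusted p = 0.00035) and 1.73-fold lower at E62 (adjusted p = 0.0036). CCNG1, a target of p53, was lower at both stages by log2 values of -0.73 (adjusted p = 0.0039) and -1.03 (adjusted p = 0.00059). CCNG2, a cyclin linked to arrest, was lower at E62 (log2 -0.84, adjusted p = 0.00064). Higher at E62 were GADD45A, a stress-induced arrest gene, 2.67-fold (adjusted p = 0.00016), BTG1, an antiproliferative gene (log2 0.49, adjusted p = 0.0052), and CDKN2B (log2 2.53, adjusted p = 0.028), whose highest library was 1.86 CPM and whose call was lost without either WT E62 library or KO E62 replicate 1 (adjusted p up to 0.23). At E41 BTG2, a relative of BTG1, was the 1 called higher (log2 1.26, adjusted p = 0.024, up to 0.12 without either WT E41 library or KO E41 replicate 2).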

How the data were processed

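The deposited table holds 1 column per library of estimated counts per gene, whole and not normalized. Per the submitters' processing notes, the tools were DESeq2 and kallisto, with no role or version, and the build was Sscrofa11.1 (also named as susScr11); per the labels' protocols, RNA was made into libraries with a TruSeq RNA or Stranded mRNA kit. Strand is not stated, so a gene and an overlapping antisense gene cannot be told apart, and estimated counts can divide reads among close copies. What annotation the authors used, and how they rounded, is not stated in these sources.

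Counts of all genes were filtered with filterByExpr (minimum count 10), TMM-scaled and modelled with edgeR 4.0.16 in R 4.3.3. The model had a mean for each of 4 groups across 8 libraries, 4 residual degrees of freedom and a common biological coefficient of variation of 0.204. The quasi-likelihood F test was two-sided, with Benjamini-Hochberg adjustment over 17020 genes. Genes tested made up 99.98% or more of each library's counts. Standard errors are the log2 change over the square root of F. The chi-square per degree of freedom between replicates, 31.8 to 70, was above sampling noise, so each library counted as 1 sample. The p-values reflect only how these libraries vary, since nothing states separate litters. Symbols were found for 15527 of 22516 genes (69%). Gene spans are those of RefSeq's Sscrofa11.1 table, matched by symbol. Steps were tested on simulated data.

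The genes and lists were chosen with earlier results of these data known. Values in every library are given for D-type cyclins, inhibitors and, in each other role group, the 3 genes with the smallest p at E41, the 2 at E62, the 2 for the difference and any called against the group's majority. In the other lists the 3 with the smallest p in each genotype comparison and up to 3 called against the majority were named. A promoter search planned at the start could not be run, since no pig genome or promoter sequence was at hand. Alternatives were DESeq2 1.42.0, other scalings and filters, thinned counts, only the groups compared, a replicate block and each library left out.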

Additional observations from a re-analysis of the deposited data

Results flagged for a closer look

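The knockout effect differed between the stages, by edgeR's test of that difference (adjusted over all genes tested), for 24 of the 46 genes and 16 of the named genes of the other lists. Values are log2 differences, the effect at E62 minus the effect at E41. Groups of 2 libraries are too small for a test of outlying samples.

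Replication and nucleotide genes with a positive difference were MCM3 (0.95), MCM4 (0.57), MCM6 (0.98), CDC6 (1.22), GINS1 (0.77) and RRM1 (1.05), and CDT1 was negative (-1.19). In the S to M and G1 groups the differences were positive for CCNB1 (1.23), CCNB2 (1.34), BUB1 (1.37), BUB1B (1.02), CDK1 (0.82), AURKB (0.53), CDK2 (0.71) and CCNE2 (0.81). Chromosome and spindle genes gave 1.54 for CENPF, 1.17 for TPX2, 1.06 for CENPE, 1.05 for BIRC5, 0.97 for KIF20A, 0.94 for KIF23, 0.75 for TOP2A and 0.74 for KIF11. Among the inhibitors CDKN2C was called, with -0.84. The calls of AURKB (adjusted p = 0.035), CCNE2 (0.024), CDK1 (0.013), MCM4 (0.013), KIF11 (0.013) and CDKN2C (0.016) were lost with at least 1 library left out, with adjusted p of up to 0.14, 0.10, 0.057, 0.065, 0.057 and 0.066.

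Among the named genes of the other lists, CDC25C, the phosphatase that activates CDK1, gave 2.25. Replication genes gave 1.26 for DUT, 1.15 for PRIM1, 1.11 for MCM10, 0.92 for RFC3, 0.84 for PRIM2 and 0.58 for ORC4. NCAPG gave 1.00 and KIF15 0.85. G1 regulators went both ways, with E2F3 (0.88) and CKS1B (0.84) positive and CDK6 (-1.16), TFDP1 (-0.87) and SKP2 (-0.74) negative. GADD45A was positive (1.26) and CCNG2 negative (-0.86). The calls of ORC4, E2F3, SKP2, CKS1B and PRIM2 were lost with at least 1 library left out, with adjusted p of up to 0.16, 0.052, 0.094, 0.053 and 0.053.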

How the results depend on the processing

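Members called numbered 31 at E41, 18 at E62, 24 for the difference between stages, and 39 (wild type) and 18 (knockout) for stage. Library size alone gave 20 at E41 and 28 at E62; the cause is the scaling, which moved the median of all genes by 0.29 and 0.31. With 1 library left out the counts ran from 20 to 33 at E41, from 9 to 21 at E62 and from 9 to 19 for stage in the knockout, with more lower than higher calls at E62 (4 against 7, 11 in all) without WT E62 replicate 2, where the main split was 11 against 7. The other alternatives kept all counts within 1.5 times, from 34 to 40 for stage in wild type and from 19 to 28 for the difference. At E62 the split of 11 higher and 7 lower became 17 and 7 under DESeq2 and 7 and 7 with only the groups compared; this last gave no value for the difference. Members called in every alternative were 17 of 31, 8 of 18, 18 of 24, 34 of 39 and 8 of 18, and no single gene's called direction was reversed. In the other lists, library size alone turned the balance of calls at E41 for G1 regulators (6 called) and for inhibitors and arrest genes (6 called). For the latter, the balance of calls for the difference turned without KO E62 replicate 2 (5 called), as did that for stage in wild type without any 1 wild-type library (3 to 5 called); the cause was not tested. Over all genes tested, same-numbered replicates did not deviate together (correlations from -0.25 to 0.097). Most members were lower in replicate 2 in both E62 groups, with 5 of 46 higher there in WT and 6 of 46 in KO. Over all genes tested the median log2 difference between these replicates was -0.002 and -0.001. Whether the replicate numbers pair libraries is not stated. With a replicate block the counts were 32, 20, 25, 39 and 19. Thinned to the smallest library, members called numbered 32, 24, 24, 39 and 18, and 1 member call was lost, the difference of AURKB (adjusted p = 0.081). Every test is limited by 2 libraries per group.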

Other observations

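CDKN1C (p57), a CDK inhibitor of the same family as CDKN1A, falls outside the rule for named genes and was chosen after its values were seen. It measured 67.6 and 23.6 CPM in WT E41, 49.2 and 44.6 CPM in KO E41, 140 and 115 CPM in WT E62 and 6.46 and 4.16 CPM in KO E62. KO E62 was far below the other groups, while the genotypes overlapped at E41, where the wild-type libraries differed widely. The log2 change in knockout against wild type was 0.04 ± 0.49 at E41 (adjusted p = 0.96) and -4.58 ± 0.57 at E62 (adjusted p = 0.0019), and the difference between the stages was called (adjusted p = 0.0097). In the knockout CDKN1C fell from E41 to E62 by 3.14 ± 0.54 on the log2 scale (adjusted p = 0.012).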
